A study of Rattus norvegicus with 6 samples.

Results

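Among the m6A intervals listed for fetal rat penile tissue, 537 of 29268 distinct intervals (1.83%) were wider than 1000 bp, had a width that was an exact multiple of 25 bp, and were listed with exactly 1 gene. These intervals were chosen by their own width and by the number of genes listed with them, so their width is a description and supports nothing. They lay in 522 of the 13146 listed genes (3.97%). An exact multiple of 25 bp, called a whole step here, was read as a peak built from fixed steps along 1 unbroken stretch. The other widths, called broken, do not keep to that step. This reading comes from the widths alone, since no label states how the peaks were built. Whole-step intervals over 1000 bp that were listed with several genes numbered 54 and were left out.

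N6-methyladenosine (m6A) is a methyl mark that a writer complex containing METTL3 and METTL14 places on messenger RNA, and it influences the splicing, translation and decay of the transcripts that carry it. In mammals it is known to be dense near stop codons, in 3' untranslated regions and in long internal exons, and sparse near splice junctions, where exon junction complexes keep the writer away. Long unbroken m6A intervals are therefore candidates for long exons, but no exon annotation was used here to check this. In penile development, androgens drive the closure of the urethra, and in hypospadias the urethra opens on the lower side of the shaft.

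The tissue was measured by methylated RNA immunoprecipitation sequencing (MeRIP-seq), in which an antibody to m6A pulls down RNA fragments that are sequenced beside input RNA. The 6 samples were 3 titled control and 3 titled case, all penile tissue of Sprague-Dawley rat fetuses. Dams had received corn oil or di-(2-ethylhexyl) phthalate (DEHP), an anti-androgenic plasticizer, by daily gavage from gestational day 12 to 19, and fetuses were taken by cesarean section on GD19.5. Per the design text, tissue came from males with hypospadias and from normal males. Neither the dose nor the number of fetuses behind a sample was stated in the labels. The table held 0 columns of values per sample, so no interval could be compared between case and control, and the depth behind each interval is unknown. All values below describe 1 list for both groups together. Intervals and genes of 1 list are not replicates, so no test was made and each 95% Wilson interval covers counting error only. Whether the tissue's own marker genes carry the intervals was not checked, because the list gives Ensembl gene IDs without symbols. The RefSeq table used here holds no Ensembl IDs, so none could be matched.

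Widths and their remainders chose the members, so the following counts only describe how far the label of unbroken stretches fits the list, with no test. Whole-step widths were in excess up to 2000 bp and not above 3000 bp. Over 1000 and up to 1250 bp, 268 of 512 single-gene intervals (52.3%) had a whole-step width, while each of the other 24 remainders of 25 held a mean of 10.2 intervals (lowest 5, highest 18). Over 1250 and up to 1500 bp there were 81 whole-step intervals against a mean of 7.79 per other remainder (3 to 12). Over 1500 and up to 2000 bp there were 70 against 13.25 (8 to 24). Whole-step widths thus stood outside the range of all other remainders in these 3 classes.

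Beyond that width the excess shrank and then vanished. Over 2000 and up to 3000 bp, 35 intervals were whole-step against a mean of 19.3 per other remainder (9 to 30). Over 3000 bp, 83 were whole-step and each other remainder held a mean of 80.5 (62 to 95). The 83 members wider than 3000 bp were therefore about as many as the other remainders held on average. An unbroken stretch cannot be told apart there from a broken one whose width is a multiple of 25 bp by coincidence. Members up to 2000 bp (419, or 78.0%) and over 2000 bp (118) are described apart below for this reason, a split made after these counts were seen.

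**Figure D1:**
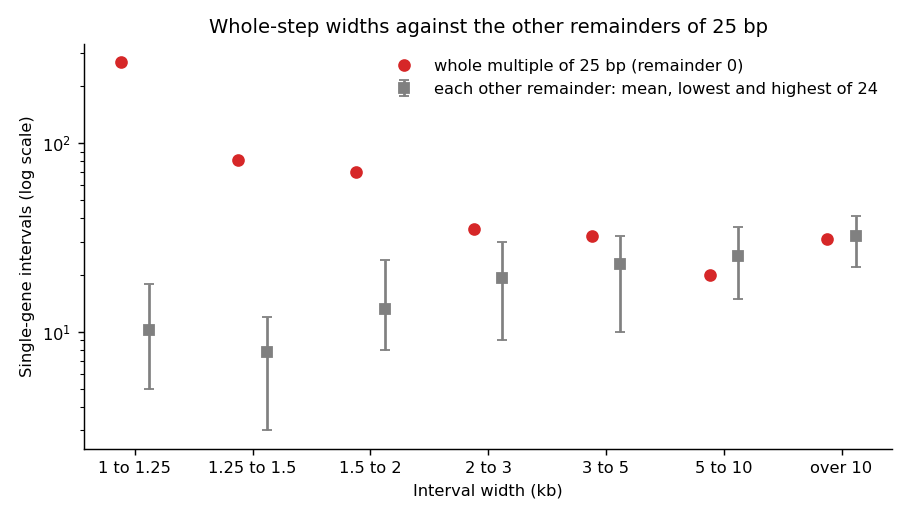
Number of single-gene intervals (log scale) by width class in kb. Red points are whole-step intervals, which over 1 kb are the intervals described here; grey squares with bars give the mean, lowest and highest count over the 24 other remainders. Red lies above the grey bars up to 3 kb, at the top of the bar from 3 to 5 kb and inside the bars beyond 5 kb.

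Most members were not far over the limit. The median width was 1275 bp, with quartiles of 1100 and 1825 bp and a 90th percentile of 4790 bp. Just inside the limit, 33 members were 1025 bp wide and 44 were 1050 bp wide. Just outside it, 37 whole-step intervals of a single gene were 1000 bp wide and 52 were 975 bp wide. The counts fell along the whole range without a step at the limit, which is the rule's own and not a break in the data.

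**Figure D2:**
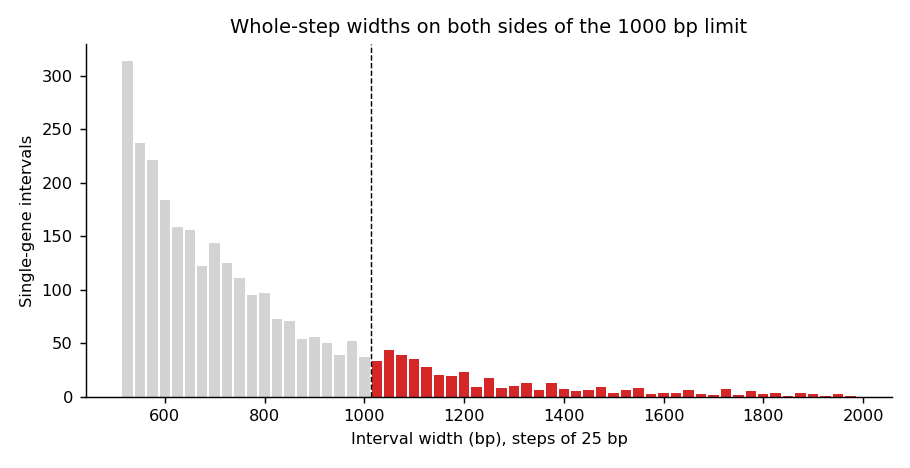
Number of single-gene whole-step intervals at each width in bp, in steps of 25 bp. The dashed line is the 1000 bp limit, with members in red: 37 intervals of 1000 bp stand beside 33 of 1025 bp.

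The members closest to the limit give examples. Positions are those of the deposited list, counted from 1, and their build is unsettled. The processing notes name Rnor_6.0, but the list's highest ends on chromosomes 1 and 10, 260249035 and 107201929, stop short of the ends of those chromosomes in Rnor_6.0 and, as background, near where they end in mRatBN7.2, a newer assembly. The positions should thus not be looked up in Rnor_6.0 without a check. In order of the list the closest were chr1:28474278-28475302 (plus strand), chr1:68810697-68811721 (minus), chr1:74144864-74145888 (minus), chr1:120766111-120767135 (plus) and chr1:167059574-167060598 (plus), each 1025 bp wide. The first, the third and the fourth were the 3'-most intervals of their genes, with 2, 5 and 2 intervals, and lay 725, 75 and 150 bp from the interval before them. The other two were interior, in genes with 5 and 6 intervals. All 5 had the neighbour on the 5' side within 725 bp and on the same 25 bp grid, meaning that the gap itself was a multiple of 25 bp. Over all members up to 2000 bp, 173 of 419 had such a 5' neighbour within 1000 bp, and 259 (61.8%) had one on either side.

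The intervals just below the limit were chr1:62433201-62434200, chr1:80792000-80792999, chr1:85253022-85254021, chr1:94020563-94021562 and chr1:156494498-156495497, each 1000 bp wide. The second, the third and the fifth were 3'-most in their genes and the other two interior. None of these 10 intervals on either side of the limit was the 5'-most of its gene.

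**Figure D3:**
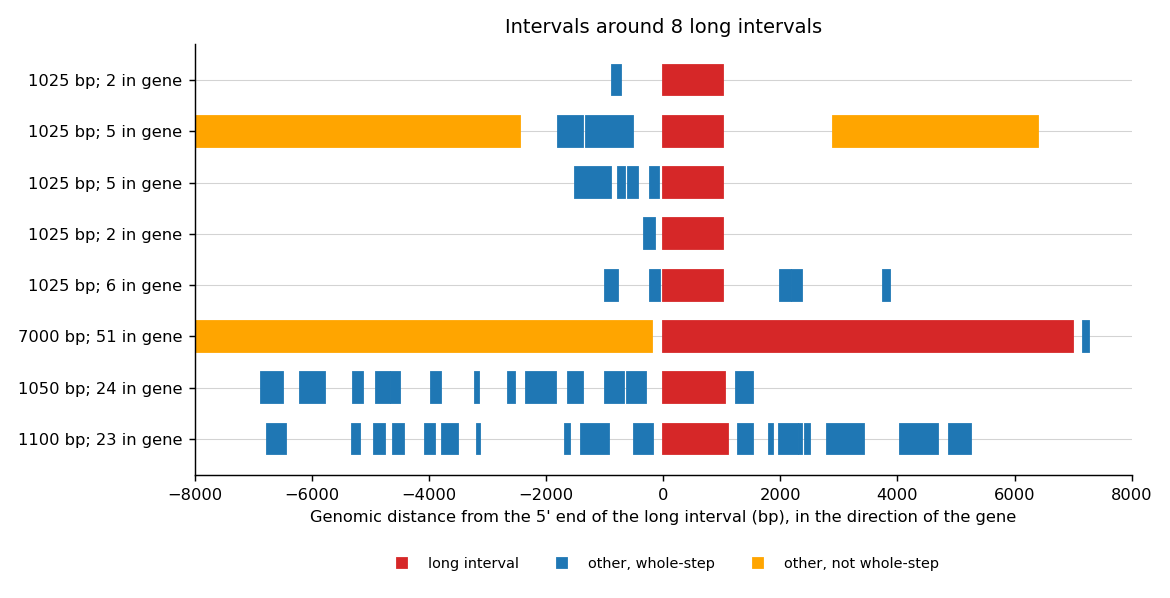
Intervals along 8 genes, drawn as genomic distance in bp from the 5' end of the long interval (red), in the direction of the gene. Blue boxes are other whole-step intervals and orange boxes are broken ones; rows 1 to 5 are the members of 1025 bp closest to the limit and rows 6 to 8 the members in genes with 51, 24 and 23 intervals. Labels give the member's width and the number of intervals in the gene, of which only those within 8000 bp are drawn; blue intervals flank most members at short gaps.

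Members up to 2000 bp sat at the 3' end of their gene's set of intervals more often than at the 5' end. In genes with 2 or more intervals, 147 of 375 such members (39.2%, 95% Wilson interval 34.4 to 44.2) were the 3'-most interval and 57 (15.2%, 11.9 to 19.2) the 5'-most, while 171 were interior. The order was the same on both strands: 40.1% against 13.4% of 187 members on the plus strand, and 38.3% against 17.0% of 188 on the minus strand. The 3'-most outnumbered the 5'-most on 17 of 21 chromosomes, and 1 chromosome had the opposite order. Place here is among the listed intervals, in genomic order, and does not say how far an interval lies from the end of the gene.

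Members over 2000 bp had the opposite order. Of 98 in genes with 2 or more intervals, 17 (17.3%) were 3'-most and 47 (48.0%) 5'-most. The 5'-most outnumbered the 3'-most on 13 of 20 chromosomes. Broken single-gene intervals over 2000 bp gave 15.1% and 48.8% of 1898. Pooled over all 473 members in such genes, 164 (34.7%) were 3'-most, 104 (22.0%) 5'-most and 205 interior, a mixture of both patterns.

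In the same width class, whole-step and broken intervals had different places. Broken single-gene intervals over 1000 and up to 2000 bp were 3'-most in 23.2% and 5'-most in 39.1% of 594, against 39.2% and 15.2% for whole-step intervals. Within this class, lone intervals included, the whole-step ones were narrower (median 1175 against 1420 bp). Their genes held more intervals (mean 4.26 against 3.25). Over 1500 and up to 2000 bp the Wilson intervals of the 3'-most shares overlapped (20.9 to 42.8 and 16.2 to 26.1). Those of the 5'-most shares did not (12.1 to 31.3 and 31.8 to 43.6). Among whole-step intervals the 3'-most share was larger in each wider class up to 1500 bp, from 27.5% at up to 200 bp through 32.8% over 200 and up to 500 bp and 36.8% over 500 and up to 1000 bp to 41.0% of 310 members over 1000 and up to 1500 bp. The 5'-most share was smaller in each wider class, from 32.4% through 23.4% and 19.4% to 14.2%. Above 1500 bp both shares turned back, to 30.8% 3'-most and 20% 5'-most of 65 members up to 2000 bp. The Wilson intervals of the 65 overlap those of the class before. The members up to 1500 bp thus lay in the direction of a gradient seen at shorter widths. Their own step from the class over 500 and up to 1000 bp is not resolved, since the Wilson intervals overlap. For the 3'-most share they were 35.6 to 46.5 and 34.8 to 38.9, and for the 5'-most share 10.7 to 18.5 and 17.8 to 21.1. Whether the gradient ended at 1500 bp cannot be told from the 65 members above that width.

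**Figure D4:**
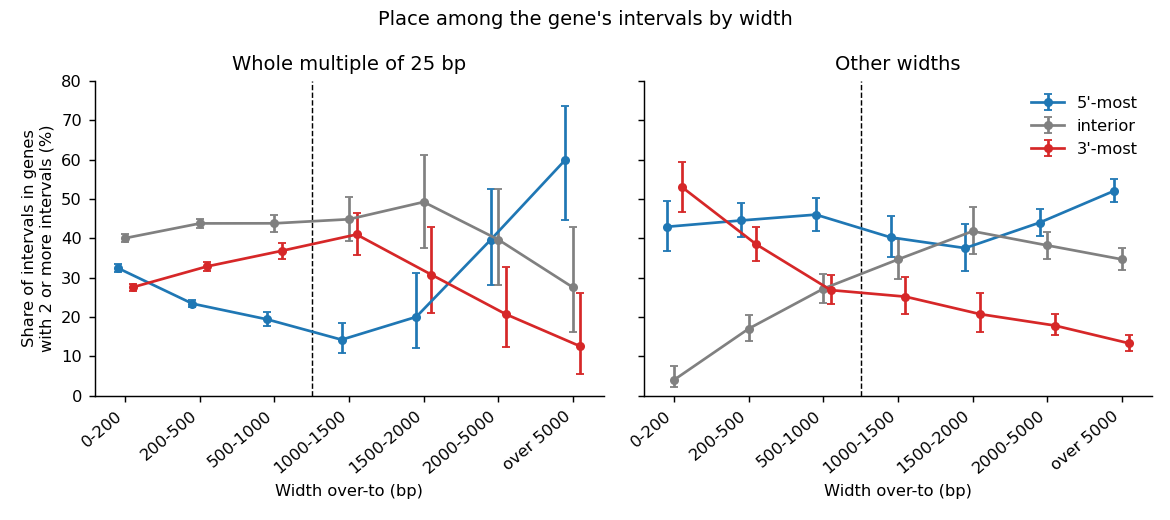
Share (%) of intervals that were 5'-most, interior or 3'-most in genes with 2 or more intervals, by width class in bp, for whole-step (left) and other widths (right); bars are 95% Wilson intervals and the dashed line is the 1000 bp limit. At left, red (3'-most) climbs to 41.0% and blue (5'-most) falls to 14.2% over 1000 and up to 1500 bp, and the order turns beyond 2000 bp.

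The excess over shorter intervals at the 3' end was not the same in genes with few and with many intervals. In genes with exactly 2 intervals, 60 of 84 members up to 2000 bp were the 3' one, against 2418 of 4523 whole-step intervals up to 1000 bp (71.4% and 53.5%). In genes with 3 intervals, 40 of 84 such members were 3'-most (47.6%, against 35.0% of the shorter ones) and 14 were 5'-most (16.7% against 30.3%). In genes with 4 intervals and with 5 or 6, the 3'-most shares hardly differed from those of shorter intervals, at 26.1% against 26.0% and 19.2% against 18.6%. The 5'-most shares there were 14.5% against 23.1% and 10.3% against 17.8%. In genes with 7 or more, 14 of 60 were 3'-most (23.3% against 10.2%) and 1 was 5'-most. A lower 5'-most share was thus common to all 5 classes, and a higher 3'-most share to 3 of them beyond a percentage point. Over 2000 bp, by contrast, 9 of 35 members in genes with 2 intervals were the 3' one. The shorter intervals in these comparisons are all whole-step ones up to 1000 bp, with 30.7% 3'-most and 27.4% 5'-most over all classes. Those over 500 and up to 1000 bp, with 36.8% and 19.4%, were not split by number of intervals. How much of the differences goes with width below the limit is therefore not known.

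Few members were the only interval of their gene: 64 of 537 (11.9%), against 15.1% of the 21335 whole-step intervals up to 1000 bp and 20.7% of the 3144 broken ones over 1000 bp. The share was 12.2% of the 2397 whole-step intervals over 500 and up to 1000 bp, so it was not particular to members. The median member lay in a gene with 3 intervals, as did the median interval of each of these other kinds. Of the 473 members in genes with more intervals, 340 (71.9%) were the widest of their gene, which follows in part from the rule, and 133 were narrower than another.

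Close neighbours of the members were nearly all on the members' own grid. For members up to 2000 bp, the gap to the next interval on the 5' side was a multiple of 25 bp in all 79 cases up to 100 bp and in 94 of 97 cases over 100 and up to 1000 bp. On the 3' side it was so in all 61 cases and in 98 of 102. In the share on the grid, both sides of the members were therefore alike at short range. They were not alike in how common such gaps were. Gaps over 100 and up to 1000 bp made up 30.5% of 318 on the 5' side and 44.7% of 228 on the 3' side. Of gaps over 100 and up to 1000 bp, whole-step intervals up to 1000 bp had 94.9% and 95.3% on the grid. Broken single-gene intervals over 1000 bp had 88.5% and 79.5%, each pair being the 5' and the 3' side. A shared grid at close range was thus particular neither to long intervals nor to whole-step ones.

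In the share on the grid, the sides differed at longer range. Over 1000 and up to 5000 bp, 20 of 41 gaps on the 3' side (48.8%, 95% Wilson interval 34.3 to 63.5) were on the grid and 4 of 51 on the 5' side (7.84%, 3.09 to 18.5). Whole-step intervals up to 1000 bp showed 37.3% of 1404 and 34.2% of 1580 on the same sides. Beyond 5000 bp the shares were 4 of 91 on the 5' side (4.40%), near the 4% that 1 remainder in 25 gives, and 3 of 24 on the 3' side (12.5%, 4.34 to 31.0). Hence the grid of a member up to 2000 bp was found again downstream at distances where it was rarely found upstream. Whole-step intervals over 500 and up to 1000 bp were not split by gap. Over all gaps they had 59.8% on the grid on the 5' side and 82.0% on the 3' side. Members up to 2000 bp had 56.9% and 79.8%, so a difference between the sides was not particular to them. Whether 1 exon spans gaps over 1000 bp was not tested, since no annotation of the list's build was used.

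**Figure D5:**
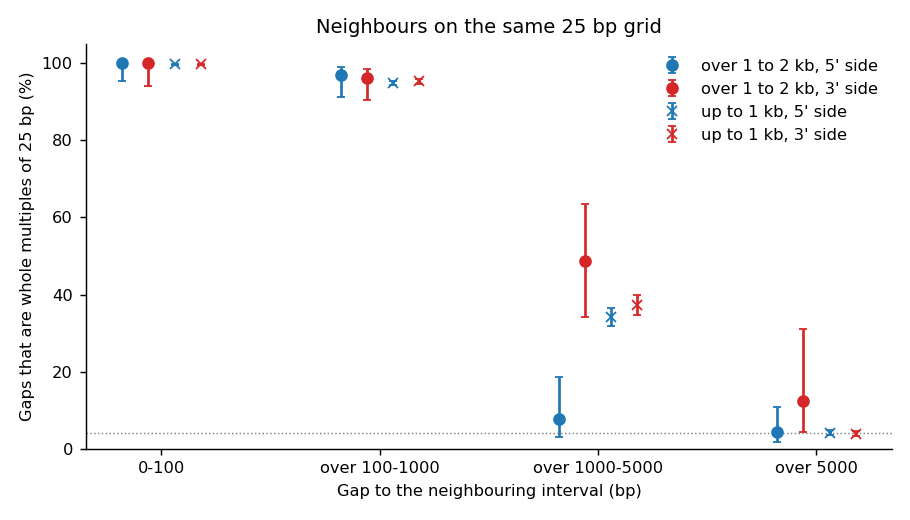
Share (%) of gaps to the neighbouring interval that are whole multiples of 25 bp, by size of the gap in bp, on the 5' side (blue) and the 3' side (red) of members up to 2 kb (circles) and of whole-step intervals up to 1 kb (crosses). Bars are 95% Wilson intervals and the dotted line marks 1 in 25 (4%). At over 1000 to 5000 bp the circles part, at 48.8% and 7.84%, and the crosses do not. The crosses pool all widths up to 1 kb, and widths just below the limit are not drawn apart.

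Over gaps of any size, interior members up to 2000 bp more often had the grid on the 3' side alone, and those over 2000 bp less often. Of 171 interior members up to 2000 bp, 57 had only the 3' neighbour on the grid and 17 only the 5' neighbour. Of 34 over 2000 bp, 6 had only the 3' and 15 only the 5' neighbour. These counts were not split by gap, and their gaps are not separate from those above. They were not made for whole-step intervals up to 1000 bp, so whether they are particular to members is not known. Of all gaps of members up to 2000 bp, 91 of 318 on the 5' side were over 5000 bp, against 24 of 228 on the 3' side. Few gaps of that size were on the grid on either side. Over all 205 interior members, with both width groups pooled, both neighbours were on the grid in 87. Of the 205, the 3' neighbour was the nearer one in 115 and the 5' neighbour in 87. The gap on the 5' side of members up to 2000 bp had a median of 462.5 bp (quartiles 125 and 8929 bp, 318 gaps) and that on the 3' side 287.5 bp (100 and 1219 bp, 228 gaps). The quartiles of the sides overlap widely, and the difference lies in the upper one. Whole-step intervals over 500 and up to 1000 bp had a median 5' gap of 425 bp (quartiles 125 and 9425 bp). Their median 3' gap was 250 bp (100 and 875 bp), so the difference was not particular to members. The neighbours of members up to 2000 bp were themselves short, with median widths of 300 bp on the 5' side and 225 bp on the 3' side.

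Many members belonged to a longer run of m6A intervals. A run was counted where whole-step neighbours followed each other on 1 grid with gaps of at most 1000 bp. Of the 419 members up to 2000 bp, 239 (57.0%) lay in a run of 2 or more intervals. Counted once per member, these had a median of 3 intervals, a median run span of 2050 bp (quartiles 1700 and 2763 bp) and 84.2% of the span covered by intervals at the median. In genes with 2 or more intervals the run, or the member alone where it had none, held the gene's 3'-most interval in 257 of 375 (68.5%). Whole-step intervals over 500 and up to 1000 bp gave 58.7% in a run and 65.6% for the 3'-most interval, and all up to 1000 bp gave 53.9% and 55.8%. Lying in a run was therefore about as common for intervals just below the limit. For members over 2000 bp a run of 2 or more was found for 36 of 118 (30.5%), and the 3'-most interval was reached in 31 of 98 (31.6%).

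The runs given next, among the longest around members up to 2000 bp, were chosen after their values were seen. The chromosome 1 gene ENSRNOG00000057569 (plus strand) held a member of 1050 bp at chr1:205909229-205910278, the interval at place 23 of 24. It stood in a run of 14 intervals over 8400 bp, of which 53.3% was covered. A member of 1050 bp on the minus strand at chr5:49389318-49390367 shared a run of 8 intervals over 7375 bp, with 71.2% covered, with another of 1050 bp at chr5:49395643-49396692. A member of 1100 bp in a gene with 23 intervals, at chr15:35364509-35365608, stood at place 15, had 175 bp gaps on both sides and lay in a run of 12 intervals over 6925 bp. In these runs the long interval was 1 piece of a stretch in which most other intervals were narrower.

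ENSRNOG00000063070, on the plus strand of chromosome 18, holds the most intervals of any gene, 51, and 1 of them was a member. It was 7000 bp wide (chr18:29512712-29519711), stood at place 12, and followed a broken interval of 10830 bp after a gap of 200 bp.

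The widest members all lay in the range with no excess of whole-step widths. They were chrX:28101772-28204096 (102325 bp, minus strand), chr15:2704748-2794847 (90100 bp, minus), chr1:166547132-166634956 (87825 bp, plus), chr2:152750960-152826759 (75800 bp, plus) and chr4:117484414-117550163 (65750 bp, minus). The first and the fourth were the only intervals of their genes. The third and the fifth were 5'-most, with the next interval 67118 and 386648 bp away and off the grid. None of the 5 was 3'-most. The 118 members over 2000 bp made up most of the members' summed width, which was 1860250 bp in all and 529150 bp for members up to 2000 bp, so a sum of widths mostly adds up genomic distance that may include introns.

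Genes with more than 1 member were few: 507 genes held 1 and 15 held 2. In 10 of the 15 both members were up to 2000 bp wide, in 4 the members were next to each other, and in 4 they lay on 1 grid. The 3 with the largest summed width each paired a wide 5' member with a shorter one toward the 3' end: 90100 and 1250 bp on chromosome 15, 65750 and 1025 bp on chromosome 4, and 17025 and 1875 bp on chromosome 1. None of these 3 pairs shared a grid. Other pairs, picked after their values were seen, had a different form. In ENSRNOG00000014230 on chromosome 3, members of 1175 bp (chr3:108274290-108275464) and 1400 bp (chr3:108278165-108279564) were at places 3 and 9 of 12 and on 1 grid. In ENSRNOG00000001582 on chromosome 11, members of 1050 and 1275 bp were the gene's 2 intervals, 10020 bp apart and off each other's grid.

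Members were spread over the autosomes and X. They made up 2.01% of the 26755 single-gene intervals of the list. By chromosome the share ran from 0.930% on chromosome 15 (7 of 753, 95% Wilson interval 0.451 to 1.91) to 3.31% on chromosome 11 (24 of 725, 2.23 to 4.88). These 2 and chromosome 3 (54 of 1973, 2.74%, 2.10 to 3.55) were the chromosomes whose Wilson interval leaves out 2.01%. Chromosome 1 held the most, 70. On X it was 1.50% (11 of 735, 0.838 to 2.66). No member lay among 11 single-gene intervals of the mitochondrial genome (upper Wilson limit 25.9%) or among 10 on Y (27.8%). Plus-strand genes held 264 members and minus-strand genes 273.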

How the data were processed

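The submitters' processing notes name HISAT2 as a tool and Rnor_6.0 as a build, but the positions look like those of mRatBN7.2 and their build is unsettled. No label or header used here names a peak caller, a peak threshold, a gene annotation or any pooling of samples. The authors' deposited table is 1 list of positions (chromosome, start, end, gene ID, gene strand; 5 columns, 31999 rows), with 0 columns of counts or other values per sample, so the count test planned for case against control could not be run. Starts were taken to be 0-based, and printed positions are 1-based.

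Width was end minus start. Place was taken among all intervals listed for the gene, in genomic order turned by gene strand, with intervals shared with other genes kept as neighbours. A neighbour was on the grid where the gap between facing ends was an exact multiple of 25 bp. Named intervals were those the rule set: the 5 widest, the 5 closest on each side of the limit (ties in the order of the list), the 3 genes with the most members and the 3 members in genes with the most intervals (51, 24 and 23; another gene of the list also has 23). Any other is said to be picked afterwards. The members, lists and alternatives were chosen with earlier results of these data known. No sequence is shown, since no genome of the list's build was used. Python 3.11.15, numpy 2.4.6, pandas 2.3.3, scipy 1.17.1 and matplotlib 3.10.9 were used. The placing code was tested on simulated data and gave back every place and gap.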

Additional observations from a re-analysis of the deposited data

How the results depend on the processing

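No paired analysis was possible because the list has no column for any sample, which also prevented leaving replicates out. The 7 alternatives gave 49 values, of which 35 stayed within the 95% interval of the value reported (for the number of intervals, within 1.5 times). With the limit at 1500 bp there were 188 intervals, with a median width of 2537.5 bp, a median gap to the nearest interval of 885 bp (275 bp over all members) and 55.8% of nearest neighbours on the grid (68.3% over all members). The order of the ends turned under this limit, to 22.7% 3'-most and 36.8% 5'-most. It pools 65 members over 1500 and up to 2000 bp, still 30.8% 3'-most and 20% 5'-most, with 98 over 2000 bp (17.3% and 48.0%). With widths up to 5000 bp alone 18.5% were 5'-most. With widths up to 2000 bp alone 39.2% were 3'-most, 15.2% 5'-most and 74.4% of nearest neighbours on the grid, with a median width of 1175 bp. Joining intervals up to 100 bp apart before the rule gave 869 intervals, 17.1% of them the only one of their gene, and a median gap of 498.5 bp; joining removes short gaps by construction. Keeping intervals of several genes, joining up to 25 bp and leaving out intervals of 50 bp moved none of the 7 results out of its interval. The cause of the turn above 2000 bp was not tested. What depth limits cannot be stated, since the list carries none.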
